A study of Rattus norvegicus with 6 samples.

Results

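The 9 genes listed here for TREM2, Fc receptor and Syk signalling were followed in primary oligodendrocyte cultures from postnatal day 1 rats: Trem2, Tyrobp, Fcer1g, Fcgr2b, Syk, Lyn, Plcg2, Vav1 and Inpp5d. They were taken as the entries whose gene name equals one of these symbols, which gave 9 of the 20422 genes in the table, 1 entry each, and all 9 were among the 16182 genes tested. Cultures received 0.01 mM water-soluble cholesterol or phosphate-buffered saline (PBS) for 12 h, with 3 poly(A) RNA libraries in each group, and no carrier control was analysed here. No strain, sex or genotype is given. The labels do not say whether replicates were separate cultures, so each p-value speaks only of the spread among these libraries, part of which may be technical.

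These genes encode a signalling chain of myeloid cells, which in the brain are mainly microglia. TREM2, a receptor for lipids and lipoproteins, has no signalling tail of its own and pairs with the adaptor TYROBP (DAP12), while activating Fc receptors pair with the adaptor FCER1G. Src family kinases such as LYN phosphorylate the tyrosine-based activation motifs (ITAMs) of these adaptors, the kinase SYK docks there, and PLCG2 and VAV1 carry the signal on to calcium and to the cytoskeleton. FCGR2B, an Fc receptor with an inhibitory motif (ITIM), and the lipid phosphatase INPP5D (SHIP1) restrain the chain.

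After cholesterol, the intracellular genes of the chain fell to between 44.6% and 57.3% of their PBS levels, while the receptor gene Trem2 rose. Of the 9 genes, 5 were lower (Syk, Lyn, Plcg2, Vav1 and Inpp5d), 2 were higher (Trem2 and Fcgr2b), and Tyrobp and the entry named Fcer1g did not pass an adjusted p of 0.05 in edgeR's quasi-likelihood test. Over all genes tested, 19.7% were lower and 20.5% higher by the same rule. The median log2 fold change of the 9 genes was -0.80, beside 0.0053 over all genes. The split of all genes depended on scaling, with 3325 higher and 3189 lower genes against 2517 and 4158 when each library was scaled to its median. That scaling left the members at 2 higher and 5 lower. Without cholesterol replicate 2, described next, 6 were lower and 1 was higher, with a median of -1.01.

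The libraries held 63769532 to 70878378 counts. No pair of libraries agreed within counting noise: chi-square divided by its degrees of freedom came to 14.3 to 20.9 among cholesterol pairs and 8.85 to 10.04 among PBS pairs. Among the cholesterol libraries, replicate 2 stood apart for myeloid transcripts. It was the highest of its group for 9 of the 9 members and for 19 of 20 microglial markers, so counts and calls that change without it are given beside the results. The labelled cell type was well represented, with Mbp and Cnp, genes of myelin, at means of 2133 and 1409 FPKM (fragments scaled for transcript length and library size), and summed levels of 15 oligodendrocyte lineage markers of 27923 to 31792 CPM after cholesterol and 19563 to 19884 CPM in PBS. CPM are counts scaled to library size with TMM factors.

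Microglial markers were present in every library and lower after cholesterol. Of 20 listed markers, none of which is a member, 15 fell and 5 did not pass, with a median log2 fold change of -0.69 (16 fell without cholesterol replicate 2). Their summed level was 501 to 665 CPM after cholesterol and 836 to 874 CPM in PBS. Laptm5, Ctss and C1qb, the markers with the highest mean FPKM, averaged 77.4 ± 16.7, 45.6 ± 7.55 and 28.1 ± 3.96 CPM after cholesterol, and 140 ± 8.40, 69.4 ± 3.94 and 47.7 ± 2.68 CPM in PBS (SD, n = 3 each). Cx3cr1, the fractalkine receptor, fell most among them (log2 fold change -1.70), whereas Cd68, a lysosomal protein of phagocytes, did not pass (0.05, adjusted p = 0.689). In bulk RNA, fewer microglia and less of a transcript per microglial cell cannot be told apart.

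Markers of other cells that use parts of this chain were also looked for. Of 11 lymphocyte and natural killer markers 4 were in the table and summed to 3.09 to 4.18 CPM after cholesterol and 5.82 to 7.67 CPM in PBS, most of it the B cell receptor subunit Cd79b, which fell. Kit, the 1 of 6 mast cell markers in the table and a gene of other cells too, did not pass (6.29 to 8.02 CPM after cholesterol, 8.08 to 8.71 CPM in PBS). Platelet markers (2 of 5 in the table) summed to 1.296 to 1.46 CPM after cholesterol and 0.596 to 0.963 CPM in PBS. The 1 that was tested, Itga2b, rose at a low level (log2 fold change 1.37, adjusted p = 0.00386 in edgeR's quasi-likelihood test). Border macrophage and monocyte markers (6 of 9 in the table), summed to 29.4 to 47.9 CPM after cholesterol and 47.3 to 51.4 CPM in PBS. Most of that sum was the mannose receptor Mrc1, which fell (log2 fold change -0.48, adjusted p = 0.0270). Astrocyte markers went the other way from the microglial ones, 7 of 10 higher and 2 lower, with Gfap, their intermediate filament gene, at 1924 ± 109 CPM after cholesterol and 942 ± 9.67 CPM in PBS (SD, n = 3 each). Endothelial and mural markers (2 higher and 2 lower of 7 tested) summed to 64.9 to 76.1 CPM after cholesterol and 68.1 to 86.9 CPM in PBS. Col1a1 made up most of that sum, with means of 51.2 CPM after cholesterol and 63.0 CPM in PBS. Neuron markers (1 lower of 8) summed to 718 to 746 CPM after cholesterol and 788 to 823 CPM in PBS. The 1 that fell was Map2, with means of 281 CPM after cholesterol and 386 CPM in PBS, while the list's median log2 fold change was 0.10. The part of any of these cells in the members' values was not tested.

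**Figure D1:**
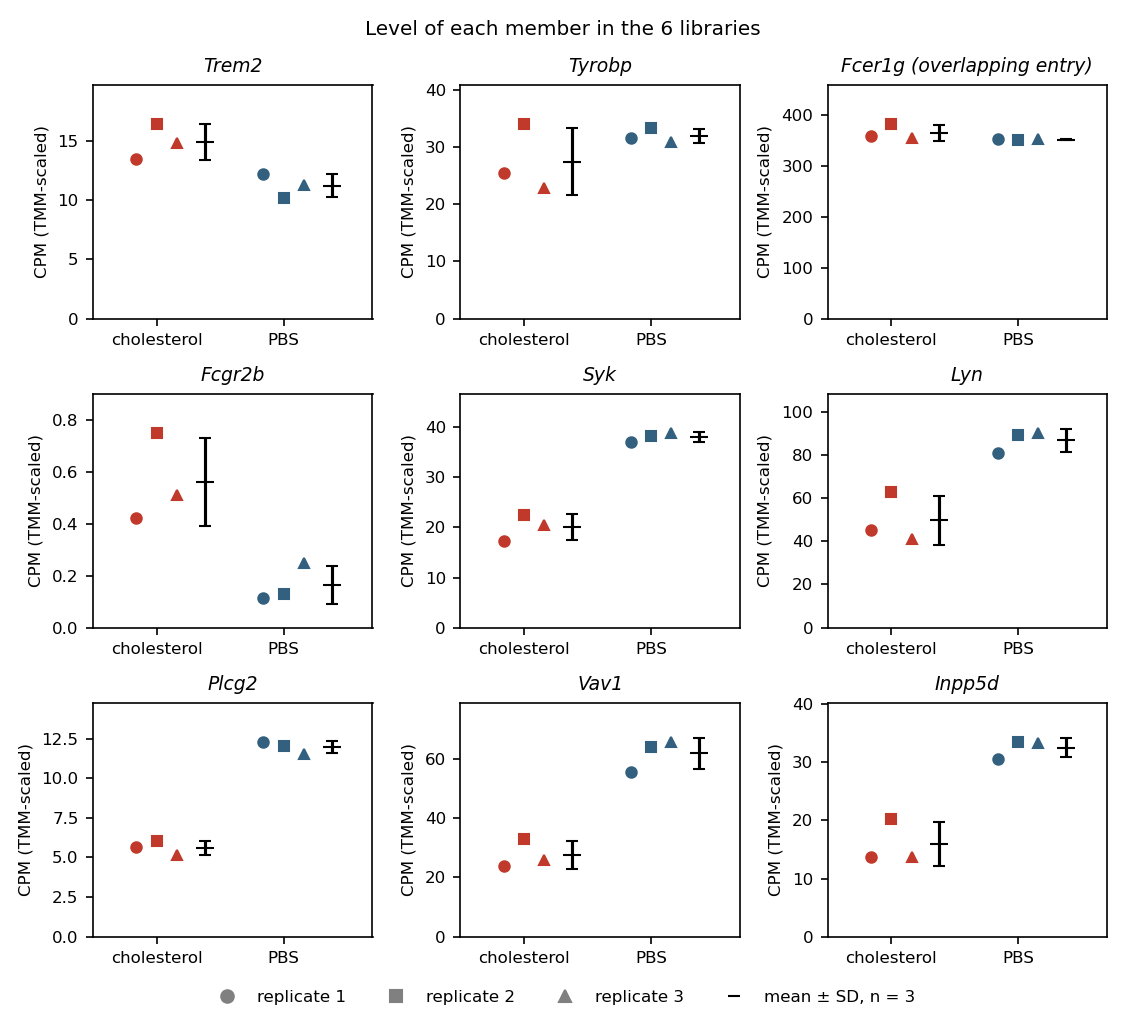
Level of each of the 9 members as TMM-scaled CPM on linear axes that start at 0, with 1 point per library, the replicate given by the marker shape, and black bars for the mean ± SD of 3 libraries. Syk, Lyn, Plcg2, Vav1 and Inpp5d sit lower in every cholesterol library than in any PBS library, Trem2, Fcgr2b and, by little, the Fcer1g entry sit higher, Tyrobp overlaps, and replicate 2 is the top cholesterol point in every panel.

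Trem2, the receptor at the head of the chain, rose 1.33-fold. The gene (rn6 chr9:12647259-12654170, minus strand) had levels of 13.5, 16.5 and 14.8 CPM in the cholesterol libraries, against 12.2, 10.2 and 11.3 CPM in the PBS libraries. Every cholesterol library lay above every PBS library, although the gap between the nearest libraries was small. Over all genes tested, 52.3% had groups that did not overlap. The log2 fold change was 0.41 ± 0.10 (SE, adjusted p = 0.00899). It kept its sign and stayed past the threshold in every alternative run, between 0.33 without cholesterol replicate 2 and 0.48 without cholesterol replicate 1. The rise ran against the microglial markers, of which 15 of 20 fell in the same libraries.

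Tyrobp, the ITAM adaptor that TREM2 needs to signal, did not pass. The gene (rn6 chr1:85672994-85676848, plus strand) had 25.5, 34.1 and 22.9 CPM after cholesterol and 31.6, 33.3 and 31.0 CPM in PBS. The groups overlapped because cholesterol replicate 2 was the highest of the 6 libraries, while the other cholesterol libraries were below all of PBS. The log2 fold change was -0.22 ± 0.12 (SE, adjusted p = 0.186), with a 95% interval of -0.49 to 0.05. Without cholesterol replicate 2 it was -0.40 and passed (adjusted p = 0.00191).

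The entry named Fcer1g, after the gamma chain shared by activating Fc receptors, cannot be read as that gene alone. In rn6 it runs over 21995 bases on the minus strand (chr13:83649449-83671443) and overlaps other annotated genes, among them Ppox on the same strand and Adamts4 on the opposite strand. Reads of genes that share this interval cannot be told apart in the table. The entry held 22888, 26074 and 22850 counts after cholesterol and 24899, 24125 and 24250 counts in PBS. The entry averaged 365.9 ± 15.9 CPM after cholesterol and 352 ± 1.54 CPM in PBS (SD, n = 3 each). Every cholesterol library lay above every PBS library, the nearest by under 1 CPM, and the log2 fold change of 0.05 ± 0.037 (SE, adjusted p = 0.284) did not pass. Its 95% interval ran from -0.03 to 0.14, and its sign turned with scaling to the library median (-0.0085).

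Fcgr2b, the inhibitory Fc receptor, was close to the floor of the measurement. Its entry (rn6 chr13:83193163-83207778, minus strand) held 27, 51 and 33 counts after cholesterol and 8, 9 and 17 counts in PBS, or 0.423, 0.751 and 0.512 CPM after cholesterol and 0.113, 0.131 and 0.248 CPM in PBS. All cholesterol libraries were above all PBS libraries, and the log2 fold change was 1.77 ± 0.50 (SE, adjusted p = 0.0165). Fc gamma receptor genes are similar in sequence, so the assignment of so few reads is uncertain against a relative such as Fcgr3a, which averaged 14.05 FPKM over the 6 libraries. The call ended without cholesterol replicate 2 (log2 fold change 1.503, adjusted p = 0.0830), without PBS replicate 1 (1.56, adjusted p = 0.0741) and without PBS replicate 2 (1.63, adjusted p = 0.0721).

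Syk, the kinase that docks on phosphorylated ITAMs, fell to 52.7% of its PBS level. At rn6 chr17:12604619-12661410 (minus strand), the cholesterol libraries had 17.3, 22.4 and 20.4 CPM and the PBS libraries 37.0, 38.2 and 38.9 CPM. The groups lay far apart, with the highest cholesterol library well under the lowest PBS library. The log2 fold change was -0.92 ± 0.086 (SE, adjusted p = 2.43e-05), and -1.01 without cholesterol replicate 2.

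Lyn, a Src family kinase that phosphorylates both activating and inhibitory motifs, had the smallest fall of the 5. The gene (rn6 chr5:16639466-16756868, plus strand) had 45.4, 62.7 and 41.0 CPM after cholesterol, against 80.7, 89.2 and 90.3 CPM in PBS. No cholesterol library reached the PBS range, and replicate 2 came nearest. The log2 fold change was -0.80 ± 0.13 (SE, adjusted p = 6.17e-04) and -1.01 without cholesterol replicate 2.

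Vav1, an exchange factor for small GTPases in blood cells, fell furthest, to 44.6% of its PBS level. The gene (rn6 chr9:2157900-2208937, plus strand) had 23.9, 33.0 and 25.8 CPM after cholesterol and 55.7, 63.95 and 65.8 CPM in PBS. The log2 fold change was -1.16 ± 0.11 (SE, adjusted p = 2.60e-05), and -1.31 without cholesterol replicate 2. Plcg2, the phospholipase that makes inositol trisphosphate below SYK (rn6 chr19:45547416-45683930, plus strand), had 5.66, 6.02 and 5.14 CPM after cholesterol, against 12.3, 12.0 and 11.5 CPM in PBS. Its log2 fold change of -1.09 ± 0.099 (SE, adjusted p = 1.92e-05) was the call with the smallest p among the members. Both genes had groups that did not overlap.

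Inpp5d, which removes the 5-phosphate from the lipid product of PI3 kinase and so opposes the kinases above it, fell with them. The gene (rn6 chr9:88287677-88392746, plus strand) had 13.8, 20.3 and 13.7 CPM after cholesterol and 30.6, 33.5 and 33.3 CPM in PBS, groups that did not overlap. The log2 fold change was -1.03 ± 0.13 (SE, adjusted p = 1.96e-04), and -1.24 without cholesterol replicate 2. The activating kinases and this brake were lower in the same libraries.

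Since these members moved together, their promoters were set side by side, with that of Trem2, which moved the other way. RefSeq promoter sequences (assembly GRCr8) matched 5 of the 9 members by symbol. They are shown from 140 bases before to 30 bases after the annotated start, 5′ to 3′ on the gene's strand, with capitals marking GAGGAA, the core of sites bound by the myeloid factor PU.1, on either strand (TTCCTC on the other strand), or its longer form GAGGAAGT.
Trem2: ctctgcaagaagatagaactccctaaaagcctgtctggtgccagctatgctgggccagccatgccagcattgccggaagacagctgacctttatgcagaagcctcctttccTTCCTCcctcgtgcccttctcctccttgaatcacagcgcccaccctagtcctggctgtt
Syk: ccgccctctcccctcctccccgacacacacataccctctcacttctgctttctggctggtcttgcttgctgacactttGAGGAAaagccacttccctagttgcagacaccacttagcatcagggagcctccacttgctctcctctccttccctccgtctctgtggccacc
Plcg2: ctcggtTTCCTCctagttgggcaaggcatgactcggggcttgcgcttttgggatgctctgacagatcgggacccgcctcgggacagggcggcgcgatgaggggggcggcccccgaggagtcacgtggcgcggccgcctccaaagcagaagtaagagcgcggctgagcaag
Vav1: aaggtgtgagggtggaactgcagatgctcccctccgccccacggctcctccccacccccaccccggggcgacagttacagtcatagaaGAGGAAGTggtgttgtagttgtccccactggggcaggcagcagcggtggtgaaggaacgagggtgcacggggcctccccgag
Inpp5d: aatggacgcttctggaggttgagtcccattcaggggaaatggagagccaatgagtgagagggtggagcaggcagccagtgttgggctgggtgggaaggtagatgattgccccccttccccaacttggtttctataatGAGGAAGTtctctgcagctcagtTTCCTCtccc

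The windows lie at chr9:20151750-20151919 on the minus strand for Trem2, chr17:12813244-12813413 on the minus strand for Syk, chr19:62456056-62456225 on the plus strand for Plcg2, chr9:2248815-2248984 on the plus strand for Vav1 and chr9:95735393-95735562 on the plus strand for Inpp5d. Of all 33365 distinct promoters of 300 bases, from 250 before to 50 after the start, 27.6% held GAGGAA on either strand, and 5 of the 5 members with a sequence did, Trem2 among them. The longer GAGGAAGT, which contains it, was in 2.42% of all promoters and in those of Vav1 (beginning at -52) and Inpp5d (beginning at -3). These matches are letters in a window and not measured sites. Spi1, which encodes PU.1 and is among the 20 microglial markers, was at 21.4 ± 3.54 CPM after cholesterol and 35.9 ± 0.748 CPM in PBS (SD, n = 3 each). Its log2 fold change was -0.75 (adjusted p = 2.196e-04 in edgeR's quasi-likelihood test), near the marker median of -0.69. Whether PU.1 has a part in the members' levels was not tested.

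Per transcript length, the order of the members changed with cholesterol. In the cholesterol libraries Tyrobp averaged 48.2 ± 10.3 FPKM, followed by Lyn (9.52 ± 2.202), Trem2 (8.62 ± 0.902), Vav1 (8.38 ± 1.48), Syk (3.50 ± 0.459), Inpp5d (3.00 ± 0.717), Plcg2 (1.204 ± 0.0931) and Fcgr2b (0.144 ± 0.0436 FPKM). In PBS Tyrobp averaged 55.7 ± 2.13 FPKM, followed by Vav1 (18.7 ± 1.64), Lyn (16.5 ± 1.02), Syk (6.59 ± 0.172), Trem2 (6.44 ± 0.566), Inpp5d (6.07 ± 0.313), Plcg2 (2.55 ± 0.0835) and Fcgr2b (0.0400 ± 0.0174 FPKM; SD, n = 3 each). The entry named Fcer1g headed both orders at 102 FPKM after cholesterol and 97.5 FPKM in PBS, with the limit on its reads given above. After cholesterol Lyn, Trem2 and Vav1 overlapped in their ranges, as did Syk and Inpp5d. In PBS the ranges of Vav1 and Lyn overlapped, and that of Trem2 overlapped both Syk and Inpp5d.

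**Figure D2:**
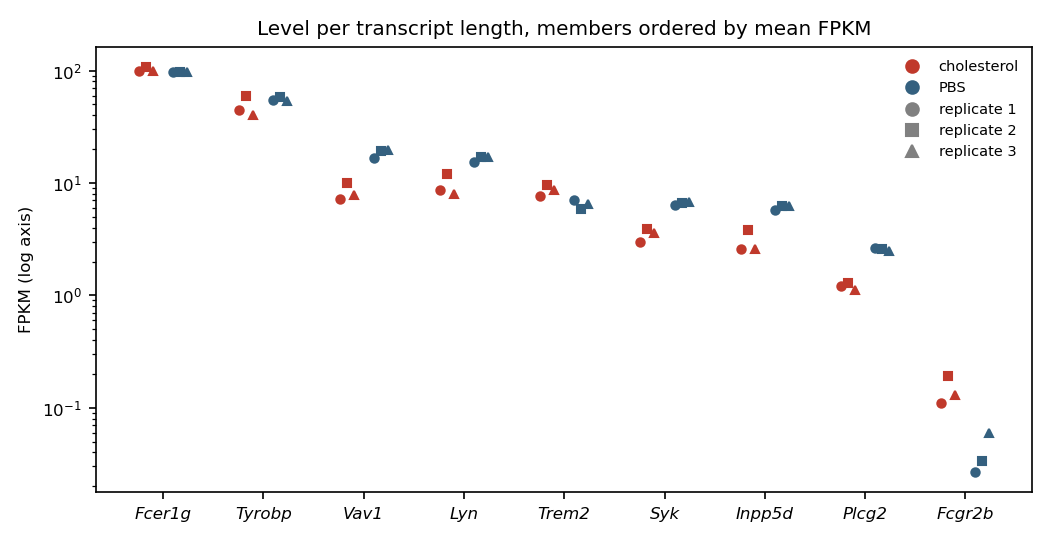
FPKM of the 9 members on a log axis, ordered by their mean over the 6 libraries, with cholesterol libraries in red left of PBS libraries in blue and the replicate given by the marker shape. Trem2 is above Syk and Inpp5d after cholesterol (8.62 against 3.50 and 3.00 FPKM) and level with them in PBS (6.44, 6.59 and 6.07 FPKM).

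The levels of receptor, adaptor and kinases can also be written as ratios within each library. These ratios restate the member levels above and are not separate support for them. How many other genes separate by group when set over Tyrobp was not computed. Trem2 stood at 17.4%, 15.9% and 21.4% of the Tyrobp FPKM after cholesterol, against 12.7%, 10.1% and 12.0% in PBS. Syk stood at 6.77%, 6.53% and 8.90% of Tyrobp after cholesterol, against 11.6%, 11.4% and 12.5% in PBS. So the receptor gained on its adaptor while the kinase lost. Vav1 averaged 17.5% of Tyrobp after cholesterol and 33.6% in PBS, and Lyn 19.7% after cholesterol and 29.7% in PBS. Within the arm that fell, Inpp5d averaged 31.5% of Lyn after cholesterol and 36.8% in PBS, and Plcg2 34.7% of Syk after cholesterol and 38.7% in PBS. Each of the first 5 ratios had groups that did not overlap, which gives the smallest two-sided exact permutation p that 3 against 3 libraries allow, 0.1 (0.12 adjusted over 6 ratios), while the Plcg2 to Syk ratio overlapped (exact p = 0.3).

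Set against the 20 microglial markers of the same library, 4 of the 9 members were higher in every cholesterol library and 4 were lower in every one. Of all genes tested, 74.6% were higher on this scale and 1.51% lower, with a median difference of 0.65, since the markers themselves were lower. The log2 level of Trem2 minus the mean log2 level of the markers was -0.25, -0.33 and -0.07 after cholesterol, against -1.15, -1.39 and -1.26 in PBS. The difference of 1.05 means that Trem2 gained on these markers by about 1 log2 unit. Fcgr2b (difference 2.47), the Fcer1g entry (0.70) and Tyrobp (0.41) were also higher in every cholesterol library than in any PBS library. Tyrobp was under the median of all genes and the Fcer1g entry close to it, so neither stood out from the rest. Vav1 (-0.53), Plcg2 (-0.45), Inpp5d (-0.41) and Syk (-0.29) were lower in every cholesterol library. Lyn (-0.18) overlapped. Exact permutation p-values were 0.1 for each of the 8 genes without overlap, the smallest this design allows, and 0.2 for Lyn (0.113 and 0.2 adjusted over 9 genes), so none could pass 0.05.

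**Figure D3:**
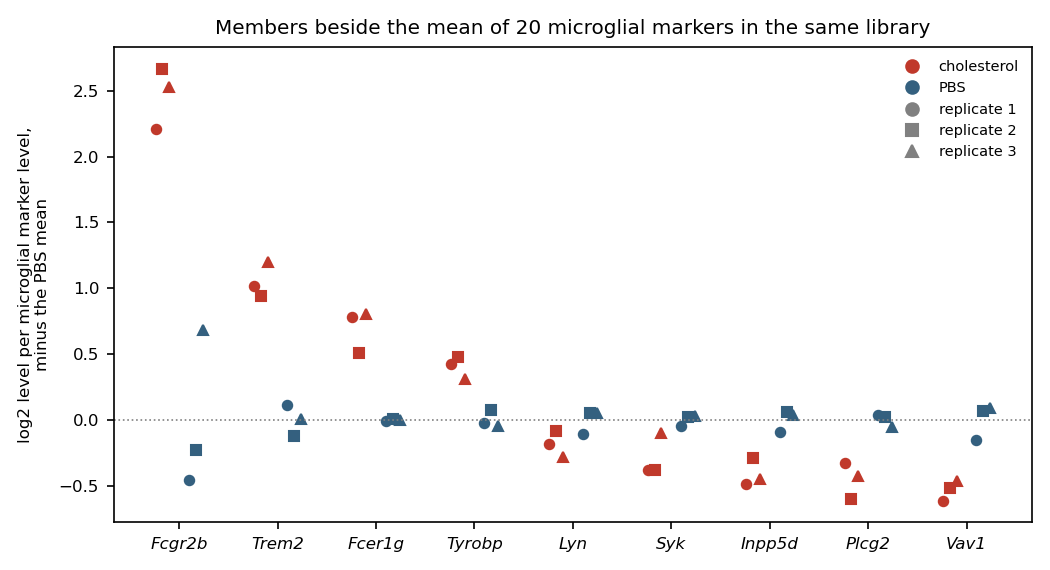
Log2 level of each member minus the mean log2 level of 20 microglial markers in the same library, shown relative to the PBS mean of that member (dotted line at 0), with cholesterol in red left of PBS in blue and 1 point per library. Fcgr2b, Trem2, the Fcer1g entry and Tyrobp lie above PBS, by 2.47, 1.05, 0.70 and 0.41, and Syk, Inpp5d, Plcg2 and Vav1 lie below it, by -0.29, -0.41, -0.45 and -0.53, where the median of all genes tested is 0.65.

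Of 20 tested receptors and adaptors that share this signalling, 11 were lower, 1 was higher and 8 did not pass, with a median log2 fold change of -0.44. Leaving out 1 library gave 8 to 11 lower, the fewest without cholesterol replicate 3. Csf1r and Itgam of this list are also microglial markers. Siglec5, a sialic acid-binding lectin, fell to 48.1 ± 7.05 CPM after cholesterol, against 106 ± 6.98 CPM in PBS (-1.14, adjusted p = 8.40e-06). Cd72, a lectin-like receptor with an inhibitory motif (-1.15), the integrin beta chain Itgb2 (-0.80) and the adhesion receptor Pecam1 (-1.15) fell as well. The gene that rose was Clec7a, or Dectin-1, a glucan receptor that couples directly to SYK, with 2.86 ± 1.13 CPM after cholesterol and 1.16 ± 0.255 CPM in PBS (1.31, adjusted p = 0.00471). Cd33, an inhibitory lectin of myeloid cells, fell (-0.79), and the activating Fc receptor Fcgr3a, which pairs with the gamma chain, fell narrowly with overlapping groups (-0.50, adjusted p = 0.0419).

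Kinases and phosphatases that act with SYK fell in larger part. Of 23 tested, 17 were lower and 3 higher, at a median of -0.63 in log2 fold change. Among those with at least 5 FPKM, 10 were lower and the median was -0.28. Ptprc of this list is also a microglial marker. Pik3cg, the PI3 kinase subunit of leukocytes, fell to 48.8 ± 10.6 CPM after cholesterol, against 111 ± 3.63 CPM in PBS (-1.19, adjusted p = 3.03e-05). The phosphatase Ptpn6 or SHP-1, which ends ITAM signals (-1.02), and the PI3 kinase regulatory subunit Pik3r1 (-0.41) also fell. The genes that rose were Yes1 (0.26), Ptpn11 (0.18) and Inppl1 (0.12), which are expressed in many cell types. Leaving out 1 library gave 1 to 4 higher, the fewest without PBS replicate 2.

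Below SYK, 15 of 27 tested scaffolds and effectors were lower and 1 was higher, with a median log2 fold change of -0.22. Lcp2 or SLP-76, which brings PLCG2 and VAV1 together, fell to 9.42 ± 1.31 CPM after cholesterol, against 21.0 ± 0.296 CPM in PBS (-1.15, adjusted p = 1.46e-05). Blnk, the related B cell and myeloid linker (-1.13), Skap2 (-1.05) and the protein kinase C gene Prkcb (-0.37) also fell. Rasgrp3, an activator of Ras, was the gene that rose (0.42, adjusted p = 0.0273). The list had 0 higher genes with scaling to the library median. It also had 0 when either PBS replicate 2 or replicate 3 was left out, but 2 when cholesterol replicate 3 was, and 2 with at least 5 FPKM.

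Relatives of the members with broader expression, picked after their values were seen, are given beside them. Inppl1 (SHIP2), the relative of Inpp5d, was at 452 ± 21.0 CPM after cholesterol and 415 ± 5.82 CPM in PBS (log2 fold change 0.12, adjusted p = 0.0257). Plcg1, the relative of Plcg2, was at 131 ± 7.84 CPM after cholesterol and 133 ± 3.02 CPM in PBS (-0.03, adjusted p = 0.703). Vav2 fell (-0.20, adjusted p = 0.00990) and Vav3 was at 0.13 without passing. Of the Src family, Fyn, which is abundant in oligodendrocytes, fell a little, to 1480 ± 77.1 CPM after cholesterol, against 1673 ± 11.6 CPM in PBS (-0.18), and Src did not pass (0.10, adjusted p = 0.120). The differences between relatives were not tested.

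A list of TREM2 ligands, its sheddases and related microglial signals went both ways, with 4 of 10 tested higher and 3 lower. The median log2 fold change was 0.12, and 0.06 without cholesterol replicate 2, 0.08 without PBS replicate 1 and 0.30 without cholesterol replicate 3. Apoe, the apolipoprotein that TREM2 binds and the gene of the list with the highest FPKM, did not pass, with 1266 ± 190.3 CPM after cholesterol and 1274 ± 49.7 CPM in PBS (SD, n = 3 each, -0.01, adjusted p = 0.941). Clu, a lipoprotein that TREM2 binds, rose to 40.2 ± 3.62 CPM after cholesterol, against 22.4 ± 1.89 CPM in PBS (0.84, adjusted p = 3.16e-05). Spp1 (0.84), which encodes osteopontin, and Lgals3 (0.57), which encodes galectin-3, rose too, both genes of phagocytic microglia. Which cells of these cultures gave the Spp1 and Lgals3 transcripts was not tested. Csf1, a growth factor whose receptor can also signal through TYROBP, rose (0.32). Adam17 (-0.39) and Adam10 (-0.12), proteases that cut the TREM2 ectodomain from the cell, fell, as did Cd47 (-0.20), a signal against engulfment. Ms4a4a (0.24) and Ms4a6a (-0.40), membrane proteins of the family linked to soluble TREM2, did not pass.

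**Figure D4:**
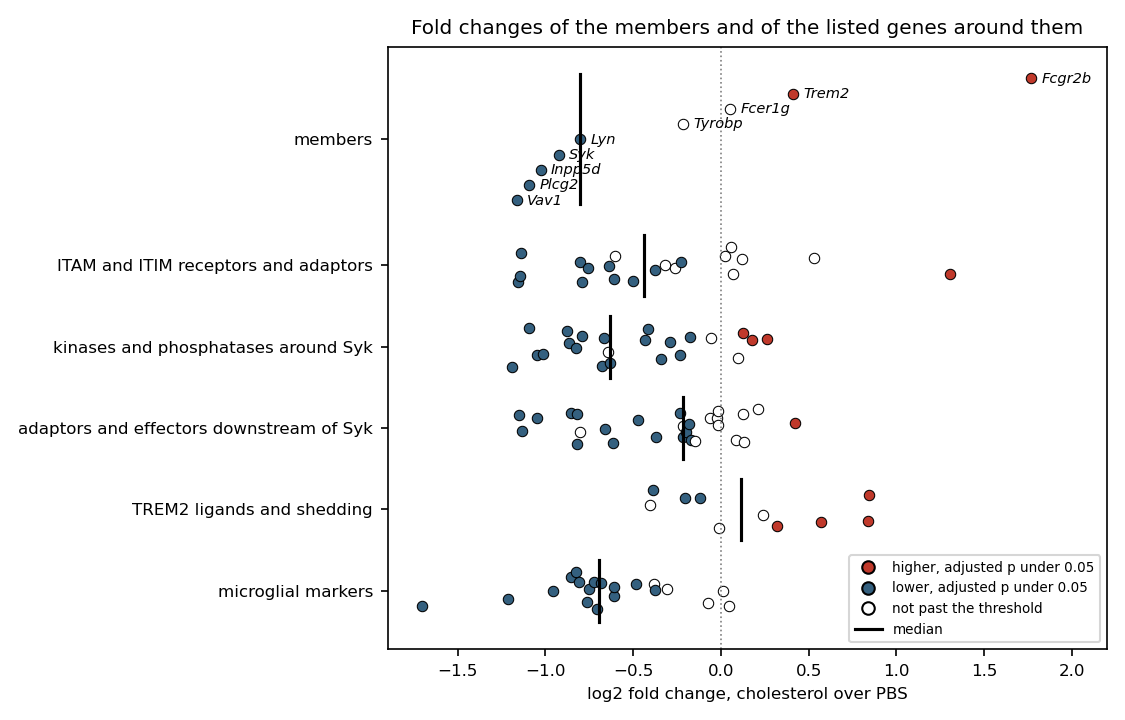
Log2 fold change of cholesterol over PBS for the 9 members (named) and for the tested genes of 4 lists around the chain and of the microglial markers, with 1 point per gene, filled where the adjusted p is under 0.05, and a bar at each median. The medians are -0.80 for the members, -0.44, -0.63, -0.22 and 0.12 for the 4 lists in the order drawn, and -0.69 for the markers, with Trem2 and Clec7a among the few red points right of 0.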

How the data were processed

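Poly(A) RNA of 6 rat culture libraries was read in pairs after a dUTP strand-marking preparation, per the labels' protocols. Tools listed without roles in the submitters' processing notes are StringTie 2.1.6, HISAT2 2.2.1, cutadapt 1.9, edgeR and DESeq2, with build rn6. The table that the authors deposited gives, for each Ensembl gene, whole-number counts and FPKM. Which annotation release was used, and whether strand entered the counting, is not given in the sources used here. Counts were kept for 16182 genes passing filterByExpr (4240 left out), scaled by TMM and tested in R 4.3.3 with edgeR 4.0.16 (quasi-likelihood, two-sided, no replicate term, Benjamini-Hochberg over all genes). The method was tested on simulated data. Levels are TMM CPM, at which 3 counts correspond to 0.0425 to 0.0470 CPM (counting error only). Between genes, FPKM were compared. The SE is the log2 fold change divided by the root of F, and 95% intervals use the total degrees of freedom. DESeq2 1.42.0 and limma 3.58.1 gave alternatives. Members and lists were chosen with earlier results of these data known. From each list of signalling genes, the text names up to 4 members with the smallest p among those called, and from marker lists genes among the 3 with the highest FPKM, and other genes named were picked after their values were seen. Where a symbol had several entries, the one with the highest mean FPKM was used. A few genes that these rules select are not reported here.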

Additional observations from a re-analysis of the deposited data

How the results depend on the processing

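The falls of Syk, Lyn and Vav1 and the rise of Trem2 kept their direction and passed under every alternative run (no filter, at least 5 FPKM, DESeq2 size factors, scaling to the library median, the DESeq2 Wald test, limma voom with quantile normalization, a replicate block and leaving out each library). Those of Plcg2 and Inpp5d did so wherever they were tested. At least 5 FPKM removed Fcgr2b, Plcg2 and Inpp5d, leaving 3 members lower and 1 higher with a median log2 fold change of -0.50, the filter's own construction. Leaving out 1 library gave 1 to 2 members higher, since Fcgr2b lost its call, and 5 to 6 lower, since Tyrobp passed without cholesterol replicate 2. The median then ranged from -1.01 to -0.68. The Fcer1g entry turned to -0.0085 with scaling to the library median and passed with limma (0.11, adjusted p = 0.0243), for which the cause was not tested. Leaving it out, chosen after seeing the data, gave a median of -0.86. The replicate block gave 3165 genes higher and 3056 lower, and 2 and 5 members. Same-numbered libraries did not deviate together over all genes tested (correlations 0.0055, -0.034 and -0.035). With 3 libraries in each group this cannot settle whether equal numbers shared a culture. Levels per microglial marker level kept their sign with summed markers, with markers of at least 5 FPKM and without each library. Leaving out 1 library gave median log2 fold changes of -0.57 to -0.30 for the receptor list, -0.80 to -0.43 for the kinase list and -0.25 to -0.19 for the adaptor list, with the lowest of each without cholesterol replicate 2. The ligand list's median was 0.24 with no filter and 0.05 with scaling to the library median. The depth limits Fcgr2b, at 8 to 51 counts.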

Other observations

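Over the 6 libraries, the genes with a symbol and at least 1 FPKM whose log2 CPM ran closest to Trem2 were Zfp512 (Pearson r 0.997), C7h8orf33 (0.993), Pmpcb, a mitochondrial processing peptidase subunit (0.991), Psma1, a proteasome subunit (0.990), and Cyb5r2, a cytochrome b5 reductase (0.988), out of 11450 genes. These values describe 6 libraries that share 1 group difference and replicate 2 as the highest cholesterol library. None of the 5 is among the 20 microglial markers, and Cyb5r2 had the largest change of them (log2 fold change 0.85).

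Among 5 tested border macrophage and monocyte markers, Mrc1 fell, Cd163, Pf4 and Ms4a7 did not pass, and the median log2 fold change was -0.24. Lyve1, a hyaluronan receptor of border macrophages and lymphatic vessels, was the one that rose, at a low level of 0.634 ± 0.104 CPM after cholesterol and 0.207 ± 0.0368 CPM in PBS (SD, n = 3 each, log2 fold change 1.61, adjusted p = 0.0109 in edgeR's quasi-likelihood test). The PI3 kinase adaptor Pik3ap1, which stands between surface receptors and PI3 kinase, fell to 45.7 ± 11.8 CPM after cholesterol, against 97.6 ± 5.77 CPM in PBS (-1.09, adjusted p = 1.57e-04). Rac2, the Rac GTPase of blood cells, fell to 105 ± 23.2 CPM after cholesterol, against 185.6 ± 6.86 CPM in PBS (-0.82), while Rac1, which most cells express, was at 414 ± 6.70 CPM after cholesterol and 470.2 ± 2.13 CPM in PBS (-0.18). These genes were picked after their values were seen.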
